A study of Mus musculus with 2 samples.

Results

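The genes that mark the mature, CCR7-positive state of dendritic cells (DCs) were examined as a group of 10: Ccr7, Fscn1, Marcksl1, Basp1, Lamp3, Cflar, Socs2, Icam1, Traf1 and Relb. They were chosen by name, and all 10 were found among the 19935 genes that the platform annotation assigned to probe sets of a single gene. Where a gene had several probe sets, the one with the highest mean of both log2 intensities was taken. The DCs came from the spleen of C57BL/6 wild-type mice at an age of 8 weeks and had been isolated by flow cytometry. The control sample was cultured in medium with vehicle, the other with IL-27, a cytokine of the IL-12 family. Each sample was read on 1 array, so no difference below has a replicate check, and no p-value or SD can be given. The number of animals or cultures behind each array was not stated in the labels, and the culture time was given only as "ON".

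DCs mature when they meet microbial or inflammatory signals, and also at a low rate without infection. A maturing DC puts CCR7 on its surface, which guides it along gradients of the chemokines CCL19 and CCL21 into the T cell zones of lymphoid organs. It reshapes its actin skeleton into long dendrites and displays adhesion and costimulatory molecules. It also switches on NF-kB genes, survival genes and genes that restrain cytokine signalling. Splenic DCs are known to mature spontaneously when they are taken out of the tissue and cultured, and both samples here were cultured.

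Most of these genes were brighter on the IL-27 array, by small amounts. Of the 9 members at or above the level minimum (the median of all probe set values, an intensity of 96.2), 6 had a positive log2 difference, IL-27 minus vehicle, and 3 a negative one. Over all 11140 genes at that level the share with a positive difference was 29.1%. The median difference of the 10 members was 0.40, or 1.32-fold, beside -0.34 for all genes at or above the level minimum and 0.04 for all 19935 genes. The members ranged from -0.45 for Socs2 to 1.01 for Basp1. A gene was called higher or lower at a difference of at least 2-fold with its brighter array at or above the level minimum. By this rule 1 member, Basp1, was higher, and the share of all genes at that level called higher was 1.52%. None was lower, and that share was 13.2%. Since the members were picked with earlier results of these arrays known, these shares are given for reading the counts and are no test.

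**Figure D1:**
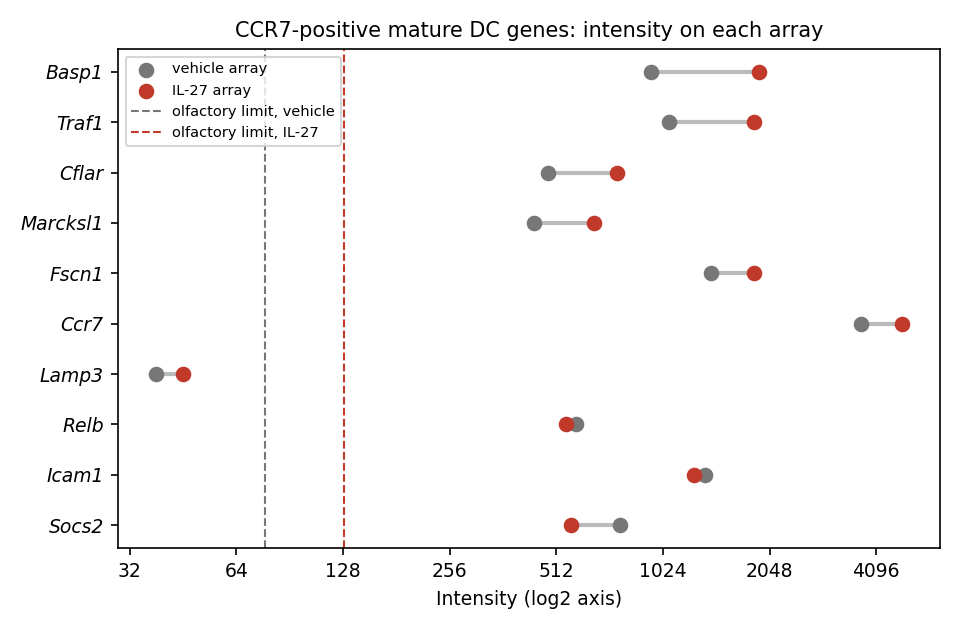
Intensity of each gene on the vehicle array (grey) and the IL-27 array (red), on a log2 axis, with dashed lines at the 95th percentile of olfactory receptor genes on each array. Basp1 goes from 946 to 1912 and Socs2 from 774 to 565, and Lamp3 lies left of both lines.

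The promoters of the members that the results turn on are shown first, as context for regulators named below. The RefSeq promoter table (GRCm38.p6, 250 bases before to 50 after the start site) held 7 of the 10 members. Both strands were searched for the NF-kB consensus, for GGAANTTCC, a palindromic sequence of the NF-kB type, and for TTCNNNGAA, the palindrome bound by STAT factors. No match of one overlapped a match of another in these promoters. Of the 32851 promoters in the table, 5.8% held the first, 0.928% the second and 8.3% the third. The promoters of Basp1 (chr15:25413715-25414014, minus strand), Traf1 (chr2:34961723-34962022, minus strand) and Icam1 (chr9:21015690-21015989, plus strand) are printed 5′ to 3′ with matches in capitals. The first 2 belong to the members with the largest differences, and that of Icam1 holds both an NF-kB type and a STAT type match although its own difference was near 0.
Basp1: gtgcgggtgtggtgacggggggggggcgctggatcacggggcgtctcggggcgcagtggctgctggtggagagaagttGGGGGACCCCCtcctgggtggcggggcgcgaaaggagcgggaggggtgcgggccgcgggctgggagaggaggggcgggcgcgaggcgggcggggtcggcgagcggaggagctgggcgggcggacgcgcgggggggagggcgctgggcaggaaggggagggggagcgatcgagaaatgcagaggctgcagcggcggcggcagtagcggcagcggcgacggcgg
Traf1: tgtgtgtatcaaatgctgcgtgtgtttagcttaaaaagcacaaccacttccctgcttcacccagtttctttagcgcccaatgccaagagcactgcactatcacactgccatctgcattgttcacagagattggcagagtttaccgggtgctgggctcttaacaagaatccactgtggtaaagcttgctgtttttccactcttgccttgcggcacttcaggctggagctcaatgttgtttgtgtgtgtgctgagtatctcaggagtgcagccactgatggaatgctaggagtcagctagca
Icam1: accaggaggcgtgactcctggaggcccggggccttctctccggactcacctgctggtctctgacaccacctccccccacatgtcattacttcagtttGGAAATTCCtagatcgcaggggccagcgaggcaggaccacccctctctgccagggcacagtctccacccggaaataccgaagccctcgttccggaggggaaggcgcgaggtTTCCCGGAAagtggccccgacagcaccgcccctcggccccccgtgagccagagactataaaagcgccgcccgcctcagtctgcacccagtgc
In Basp1 the capitals mark 2 overlapping windows of the NF-kB consensus, from 172 to 162 bases before the start site, in a window with 78% G and C. In Icam1 they mark GGAAATTCC, from 153 to 145 bases before the start site, and TTCCCGGAA, from 42 to 34 bases before it. The Traf1 window held no match to these 3 patterns. Of the other members in the table, Lamp3 held the STAT pattern, and Cflar, Fscn1 and Marcksl1 held none. A match is a run of letters and no evidence of binding.

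Ccr7, the receptor that names the group, was bright on both arrays. Its probe set (10390763) had an intensity of 3702 in the vehicle sample and 4858 in the IL-27 sample, which is 1.31-fold higher, or 0.39 on the log2 scale. This is short of the size rule. The 1000 genes nearest to it in mean level had a median difference of -0.26, and 9.8% of them had a difference at least as large upward. Ccr7 was above the olfactory limits introduced below on both arrays, also in the culture without IL-27.

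The 3 members that act on the membrane skeleton were all brighter with IL-27. Fscn1 encodes fascin, the protein that bundles actin filaments in the dendrites of mature DCs. It had an intensity of 1398 in the vehicle sample and 1856 in the IL-27 sample, 1.33-fold higher (0.41). Marcksl1 encodes a relative of MARCKS, a lipid-anchored protein that binds the membrane and actin. It had 444 and 656, 1.48-fold higher (0.56). Basp1 encodes another lipid-anchored protein of the inner membrane leaflet, best known from nerve growth cones. It had 946 and 1912, 2.02-fold higher (1.01), and was the member past the size rule. That call was narrow: with each array centred on its median the difference of Basp1 was 0.92 and the call was lost. Among the 1000 genes nearest in level, 2.3% matched or exceeded Basp1 upward, 4.6% Marcksl1 and 9.9% Fscn1.

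Lamp3, which encodes the lysosomal membrane protein DC-LAMP of mature human DCs, could not be told from background. Its intensities were 37.9 in the vehicle sample and 45.2 in the IL-27 sample. The 1027 olfactory receptor genes, which are not expected in DCs, had 95th percentiles of 77.3 and 129 on the same arrays, so Lamp3 was inside their range in both samples. Its difference of 0.25 was close to the median of the genes nearest in level (0.20), and 35.6% of those genes reached it. No direction is read from it.

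Of the members tied to survival and NF-kB signalling, 2 were brighter with IL-27 and Relb was nearly level. Traf1, an adaptor of TNF receptors whose gene is a known NF-kB target, had 1065 in the vehicle sample and 1849 in the IL-27 sample, 1.74-fold higher (0.80), and 4.4% of genes of like level reached this upward. Cflar encodes c-FLIP, which holds back caspase-8 at death receptors. It had 485 and 760, 1.57-fold higher (0.65), and 4.2% of genes of like level reached this upward. Relb, the NF-kB subunit of the alternative pathway and a regulator of DC maturation, had 583 and 544, a difference of -0.10 as deposited that turned to 0.28 once the trend of the difference with level was removed. Genes of its level had a median of -0.47. With that trend removed, Traf1 and Cflar passed 2-fold too, at 1.03 and 1.02, beside Basp1 at 1.25. That made 3 members higher, where 2.38% of all genes at or above the level minimum were. Under the same setting 8 of 9 members at that level had a positive difference, beside 42.2% of all genes. The count of higher members was 1 with quantile normalization (2.12% of all genes), 0 with median centring (1.19%) and 3 with a 1.5-fold rule (5.86%).

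Socs2 and Icam1 did not share the positive differences. Socs2, a suppressor of cytokine receptor signalling, had 774 in the vehicle sample and 565 in the IL-27 sample, which is 1.37-fold lower (-0.45). Its difference lay at that of its level: the nearest 1000 genes had a median of -0.43, and with the level trend removed Socs2 differed by -0.10. Icam1, the adhesion molecule that binds the integrin LFA-1 on T cells, had 1351 and 1255 (-0.11), and the sign turned under removal of the level trend (0.14) and under quantile normalization (0.06). The difference of Relb also turned under quantile normalization (0.21). No direction is drawn for Icam1 or Relb.

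**Figure D2:**
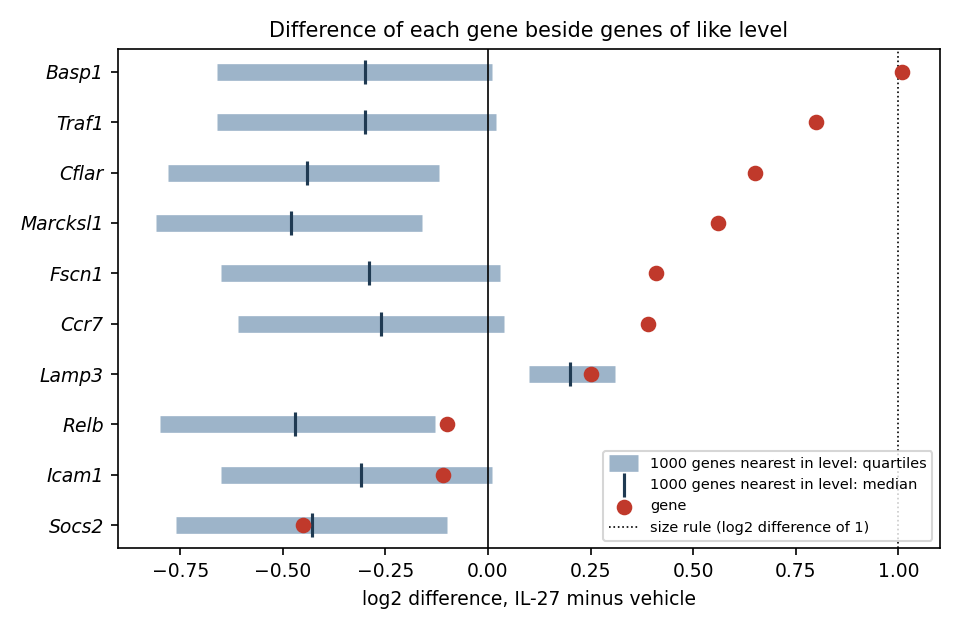
The log2 difference, IL-27 minus vehicle, of each gene (red) beside the median (tick) and quartiles (blue bar) of the 1000 genes nearest in mean level. Of the 10 genes, 7 lie right of the upper quartile of their bar, and Socs2 lies just left of its median.

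Read beside genes of like level, 9 of the 10 members lay above the median of their neighbours and 7 above their upper quartile. The distance to that median was 1.32 for Basp1, 1.10 for Traf1, 1.09 for Cflar and 1.05 for Marcksl1, then 0.69 for Fscn1 and 0.66 for Ccr7. It was 0.37 for Relb, 0.20 for Icam1, 0.06 for Lamp3 and -0.02 for Socs2. The comparison matters because the difference between these arrays moved with level, so that a gene of middling brightness was on average dimmer on the IL-27 array. Genes are not replicates, and the shares of neighbours are a description of these arrays.

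**Figure D3:**
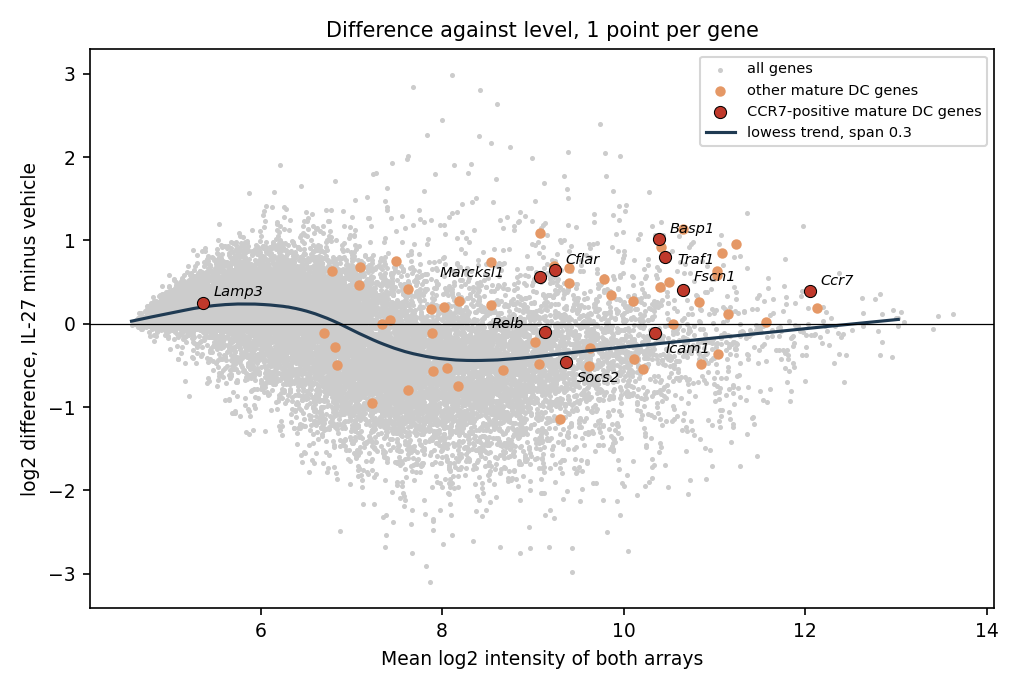
Log2 difference, IL-27 minus vehicle, against mean log2 intensity for all 19935 genes (grey), the other mature DC genes (orange) and the 10 members (red, named), with the lowess trend as a line. All members but Socs2 lie above the line, Lamp3 by 0.05, and the line runs below 0 where most of them lie.

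Cflar and Socs2 had several probe sets, and the brightest ones have an uncertain source. Probe set numbers of this platform mostly run along the chromosomes: 96.9% of single-gene probe sets had at least 3 of their 6 flanking single-gene probe sets assigned to the chromosome of their own gene. The Cflar probe set used above (10497931) had 0 of 6, and its neighbours were assigned to Ankrd50 and 1700017G19Rik. The other Cflar probe sets, 10346551 and 10346562, each had 5 of 6 and preceded Casp8, the neighbour of Cflar in RefSeq. They had 282 in the vehicle sample and 466 in the IL-27 sample (0.72), and 165 and 231 (0.49), so the sign was shared by all 3. The Socs2 probe set used above (10394674) also had 0 of 6. The other, 10372069, which lies between those of Cradd and Mrpl42, had 135 and 104 (-0.37), and the latter value was below the olfactory limit. The remaining 8 members had 1 probe set each, with 5 or 6 of 6 neighbours on their own chromosome. Whether the brighter Cflar and Socs2 probe sets report a near-identical copy was not tested.

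**Figure D4:**
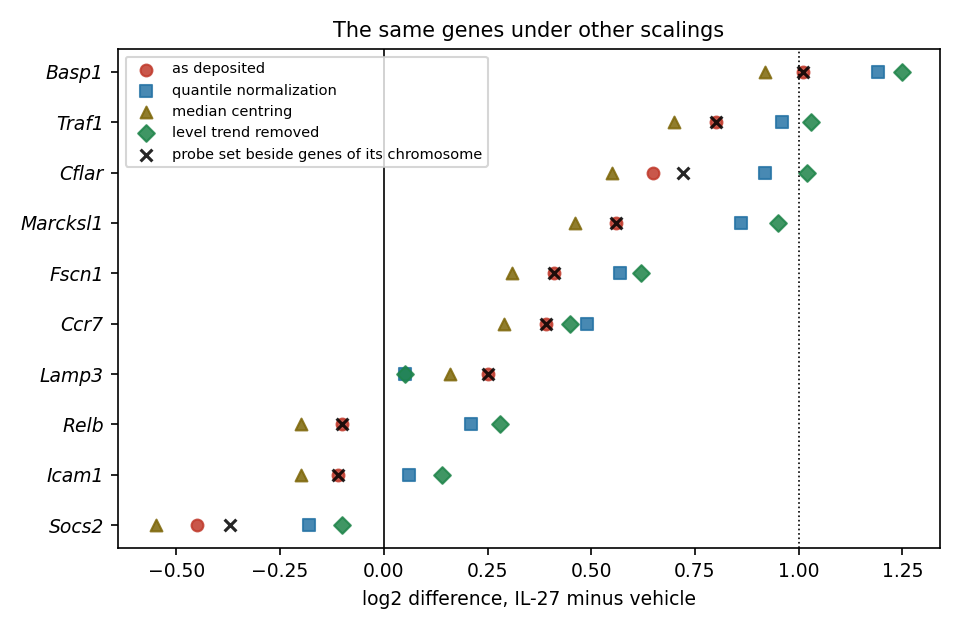
Log2 difference, IL-27 minus vehicle, of each gene as deposited and under 4 alternatives, with the 2-fold size rule as a dotted line. Basp1 crosses below the line with median centring (0.92), Traf1 and Cflar cross above it with the level trend removed (1.03 and 1.02), and Relb and Icam1 change sign.

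Other genes known from mature DCs were also brighter with IL-27 in the majority, with more spread. Of 54 listed, 51 were measured, all at or above the level minimum. Of these, 30 had a difference above 0, beside 29.1% of all genes at that level, and the list median was 0.19. By the size rule 2 were higher (1.52% of all genes at that level were), 1 was lower (13.2%) and 48 were neither. Gadd45b, a stress-response gene, had 1088 in the vehicle sample and 2385 in the IL-27 sample, 2.19-fold higher. Ccl22, a chemokine of mature DCs that draws regulatory T cells, had 371 and 791, 2.13-fold higher, and its difference was just short of the rule with median centring (0.99). H2-M2, a nonclassical MHC class I gene, had 936 and 425, 2.20-fold lower, but -0.78 on the log2 scale with the level trend removed, which ends the call. Serpinb6b, a protease inhibitor, had 993 and 1881 (0.92). The costimulatory gene Cd80 had 1731 and 3357 (0.96) by its brighter probe set and 1016 and 1246 (0.29) by the other. Slco5a1 had 209 and 108, the latter within the olfactory range, which makes it at least 1.62-fold lower. With the level trend removed, 9 of the 51 were higher and 0 lower (shares of all genes: 2.38% and 6.70%), and the list median was 0.45.

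Of the CCR7 ligand and signalling genes at or above the level minimum, 3 of 8 were brighter with IL-27, beside 29.1% of all genes. Ccl19 had 185 in the vehicle sample and 310 in the IL-27 sample (0.74), and its 5 probe sets ranged from 0.74 to 0.75. Signals of near-identical Ccl19 copies cannot be separated on them. With the level trend removed Ccl19 passed 2-fold (1.15), as it did under quantile normalization (1.03). The other 2 brighter genes were Ptger4, a prostaglandin receptor that aids CCR7 migration, at 755 and 948 (0.33), and the G protein subunit gene Gnb1, at 3060 and 3356 (0.13). As deposited the size rule called 3 of the 8 lower (13.2% of all genes were) and 0 higher (1.52%). The median of these 8 was -0.58, beside -0.34 for all genes at or above the minimum, and -0.43 over the 10 measured. Pik3cg, the lipid kinase activated by chemokine receptors, had 1130 and 364, 3.11-fold lower. Grk6, a kinase that desensitises such receptors, had 340 and 117, at least 2.63-fold lower against the olfactory limit. Plcb2, a phospholipase of the same pathway, had 1049 and 426 (-1.30), short of 2-fold with the level trend removed (-0.95). Arrb2, which encodes a beta-arrestin, had 1059 and 641 (-0.72), and Gnai2, another G protein subunit gene, 2216 and 1641 (-0.43).

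Most actin regulators of DC migration did not share the positive differences of Fscn1, Marcksl1 and Basp1. Of 24 at or above the level minimum, 4 had a difference above 0 and 20 below, beside 29.1% of all genes above 0. The largest of the 4 was that of Myo1g, at 1710 in the vehicle sample and 2569 in the IL-27 sample (0.59). The median of the 27 measured was -0.32. Over the 24 it was -0.34, the same as for all genes at or above the minimum, so the list lay at the background. By the size rule 4 were lower (13.2% of all genes at that level were) and 0 higher (1.52%), and with the level trend removed 2 were lower (6.70%). Was, the Wiskott-Aldrich protein that starts actin branching, had 727 in the vehicle sample and 256 in the IL-27 sample, 2.84-fold lower. Evl, which lengthens filaments, had 1486 and 582, 2.55-fold lower. Dock8 and Rac2, an activator of CDC42 and a small GTPase, were 2.42-fold and 2.20-fold lower as deposited, and -0.98 and -0.90 on the log2 scale with the level trend removed. Dock2 had -0.79 and Myo9b -0.88. Within the families of the members, Marcks itself had 2383 and 1849 (-0.37). Fscn3 and Gap43 were inside the olfactory range in both samples, and Fscn2 had 90.3 and 102, the latter within it.

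The relatives and partners of the other members gave few large differences. Among the other TRAF genes and adaptors, Tank had 722 in the vehicle sample and 1075 in the IL-27 sample (0.57), Traf4 271 and 366 (0.43), Traf2 347 and 416 (0.26) and Traf6 580 and 631 (0.12). Traf7 had 447 and 297 (-0.59), Traf5 206 and 125 (at least 1.59-fold lower, the latter within the olfactory range) and Traf3ip2 95.7 and 84.1. None of the 6 at or above the level minimum passed the size rule, where 1.52% of all genes at that level were higher and 13.2% lower. The difference of Traf1 was the highest of the 8 measured.

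In the NF-kB list, which shares 6 genes with the mature DC list, 8 of 16 genes had a difference above 0. Over all genes at or above the level minimum that share was 29.1%. None of the 16 passed the size rule, where 1.52% of all genes at that level were higher and 13.2% lower. The subunit genes Rel (3528 and 4456), Nfkb2 (823 and 1043) and Rela (837 and 1000) differed by 0.34, 0.34 and 0.26. Map3k14, which encodes the kinase NIK of the alternative pathway, had 472 and 764 (0.70), or 1.07 with the level trend removed. Nfkbib, an inhibitor gene, had 1667 and 2419 (0.54) and the receptor Cd40 571 and 802 (0.49). Birc2 and Birc3, which keep NIK low, differed by -0.75 and -0.43, or by -0.31 and -0.16 with the level trend removed, and the other probe set of Birc2 by -0.17. Tnfrsf11a, the receptor RANK, differed by -0.45 (-0.02 with the level trend removed). The list median was 0.03, beside -0.34 for all genes at or above the level minimum. It was -0.07 with median centring, 0.28 with quantile normalization and 0.32 with the level trend removed. Under quantile normalization and trend removal, all genes at that level had medians of -0.15 and -0.10.

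Around Cflar, none of the 6 death receptor partners at or above the level minimum passed the size rule. Of all genes at that level 1.52% were higher and 13.2% lower. The median of the 6 was -0.49, beside -0.34 for all genes at that level. Over the 7 measured it was -0.31, or -0.02 with the level trend removed. With that trend removed, all genes at or above the minimum had a median of -0.10. Casp8, the protease that c-FLIP restrains, had 1581 in the vehicle sample and 999 in the IL-27 sample (-0.66). Tnfrsf1a had 855 and 524 (-0.71), and Fadd had 158 and 90.5, the latter within the olfactory range, which makes it at least 1.22-fold lower. Fas had 88.6 and 137 (0.63), both values close above the olfactory limits of 77.3 and 129. Tradd and Bid both differed by -0.31, and by -0.02 and 0.03 with the level trend removed. Of the 6 at or above the minimum, 1 was above 0, beside 29.1% of all genes.

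The other SOCS genes differed little, from -0.29 for Socs6 to 0.29 for Cish. None of 7 passed the size rule, where 1.52% of all genes at or above the level minimum were higher and 13.2% lower. Their median of -0.10, beside -0.34 for all genes at that level, turned to 0.14 with the level trend removed, beside -0.10. The integrin chains that bind ICAM-1 were dimmer. Itgam had 339 in the vehicle sample and 122 in the IL-27 sample, at least 2.62-fold lower. Itgal had 804 and 422 (-0.93, or -0.55 with the level trend removed). Itgb2 had 2293 and 1660 (-0.47, or -0.29 with that trend removed). Of the 6 ICAM and integrin genes at or above the level minimum, 1 was lower (13.2% of all genes) and 0 higher (1.52%). Their median was -0.67, beside -0.34 for all genes at that level. Icam2 and Icam5 differed by 0.19 and 0.02 with IL-27 values within the olfactory range, and Icam4 was inside it in both samples. Of the LAMP family, Lamp1 had 1978 and 1236 (-0.68, or -0.47 with the level trend removed) and Cd68 2617 and 1588 (-0.72, or -0.55). Lamp2 had 972 and 897 (-0.12, or 0.18 with that trend removed), and Lamp5 was within the olfactory range. None of the 3 at or above the level minimum passed the size rule, where 1.52% of all genes were higher and 13.2% lower.

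**Figure D5:**
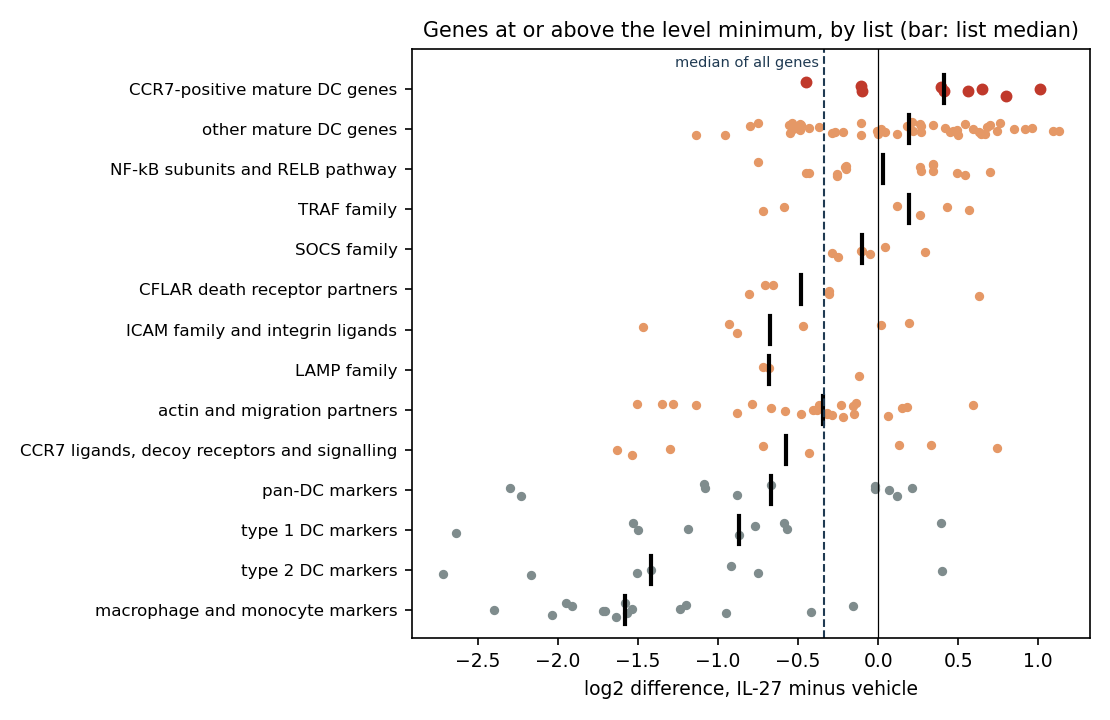
Log2 differences, IL-27 minus vehicle, of genes at or above the level minimum in each list (points, scattered vertically for legibility), with the list median as a bar and the median of all genes at that level, -0.34, as a dashed line. The mature DC lists lie mostly right of the dashed line, and the macrophage and type 2 DC markers mostly left of it.

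Markers of the sorted cells and of other cells moved beside these genes. Itgax (3371 in the vehicle sample and 1829 in the IL-27 sample), Flt3 (1796 and 851), Zbtb46 (344 and 340) and H2-Aa (7080 and 7697) were above the olfactory range in both samples. By the size rule 4 of 11 pan-DC markers were lower and 0 higher, beside 13.2% and 1.52% of all genes at or above the level minimum, and their median was -0.67. The 4 were Kmo (-2.30), Bcl11a (-2.23), Dpp4 (-1.09) and Flt3 (-1.08), of which Dpp4 and Flt3 were short of 2-fold with the level trend removed (-0.84 and -0.83). Of 9 type 1 DC markers 4 were lower, as were 4 of 7 type 2 DC markers at or above the minimum. That is beside 13.2% of all genes, and none was higher (1.52%). The medians of these 9 and 7 genes were -0.87 and -1.42. Macrophage and monocyte markers were lower in 12 of 15, again beside 13.2% of all genes, with none higher, and their summed intensity over 16 genes was 39955 in the vehicle sample and 18226 in the IL-27 sample. Cd163 was at least 3.59-fold, Slc40a1 4.12-fold and Mertk 3.86-fold lower. The summed intensity of the 51 mature DC genes was 44356 and 52079. The part of these shifts in the differences of the 10 members was not tested. In bulk RNA, fewer cells of a type and less RNA per cell cannot be told apart. Of T cell, NK cell, and neutrophil and mast cell markers, 4 of 7, 4 of 8 and 6 of 9 were inside the olfactory range in both samples, and B cell markers had a median of -0.73 over 7. At or above the level minimum, 0 of 3 T cell and 2 of 4 NK cell markers were lower. So were 1 of 3 neutrophil and mast cell markers and 2 of 7 B cell markers, beside 13.2% of all genes. None of these markers was higher (1.52%).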

How the data were processed

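Total RNA of 2 samples was labelled with biotin by Affymetrix's WT Terminal Labeling Kit, per the labels' protocols. The deposited table held 1 linear intensity per probe set and array for 28815 probe sets. How the authors corrected background, summarized probes and normalized arrays is not given in the sources used here. The submitters' processing notes name build mm8. Median intensities were 92.4 (vehicle) and 98.9 (IL-27), so the deposited probe set values did not share a common distribution. All values exceeded 0, and log2 was taken with no pseudocount. The number of arrays limits precision.

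GEO's platform annotation gave 1 gene to 21780 probe sets, several to 1605 and none to 5430. Members, the 18 other lists and the tests were chosen with earlier results of these data known. Named genes were all members, their families, and up to 6 genes per list (up to 3 per marker list) with the largest absolute difference at or above the level minimum. Further genes were named after their values were seen. The lowess trend (span 0.3, statsmodels 0.14.6) was fitted over all probe sets. The scripts were tested on these genes with their differences shuffled among genes of like level and known shifts added, and on simulated noise with a known trend. Alternatives were quantile normalization, median centring, trend removal, an offset of 16, probe set means, other level minimums, a 1.5-fold rule and other neighbour sets. The choice of probe set by its neighbours and the olfactory limit were added after seeing the data.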

Additional observations from a re-analysis of the deposited data

How the results depend on the processing

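With 1 array per group, no replicate could be left out. No paired analysis was possible because each group has 1 sample. For the 10 members, the count of higher genes went from 1 to 0 with median centring, to 3 with the level trend removed and to 3 with a 1.5-fold rule (shares of all genes at or above the level minimum: 1.19%, 2.38% and 5.86%). It was 1 under quantile normalization, the offset of 16, probe set means, other level minimums, the choice of probe set by neighbours and the olfactory limit. No member was lower under any of these. The median difference of 0.40 ranged from 0.30 with median centring to 0.53 with quantile normalization or trend removal. With 300 neighbours, 9 members lay above the median of their neighbours, and with neighbours matched on the vehicle array all 10 did. The difference of Socs2 itself was the same there. The median of its neighbours was -0.56, beside -0.43 with matching on mean level, so its change of side came from the matching.

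For the other mature DC genes, higher calls went from 2 to 5 with quantile normalization, 1 with median centring, 9 with the level trend removed and 13 with the 1.5-fold rule, and lower calls from 1 to 0, 2, 0 and 4. Removing the level trend took their median from 0.19 to 0.45, and median centring took it to 0.09. Over the 126 genes of the 9 pathway and family lists, the median of -0.14 turned to 0.02 with quantile normalization and 0.04 with the level trend removed, and was -0.24 with median centring. Higher calls went from 2 to 6 with quantile normalization, 1 with median centring, 10 with the level trend removed and 14 with the 1.5-fold rule, and lower calls from 9 to 7, 11, 5 and 25. The cause of these changes was not tested. No direction was read for genes within the olfactory range on both arrays. Folds given as at least a value are those with the dimmer array raised to its olfactory limit.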

Other observations

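Probe sets assigned to a gene but numbered among genes of another chromosome were not particular to Cflar and Socs2. They were found for 409 genes that also had a probe set among neighbours of their own chromosome, and in 257 of these (62.8%) the brightest probe set was the one numbered elsewhere. In those 257 genes it was brighter by a median of 0.42 on the log2 scale. The differences between arrays of both kinds of probe set were usually close, with a median absolute gap of 0.12, and 3 genes had a gap of at least 1. Socs6 and Rhoa were also represented by such probe sets here. Their differences were -0.29 and 0.06, beside -0.27 and 0.06 for the brightest probe set among neighbours of the gene's own chromosome.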
